A study of Mus musculus with 12 samples.

Results

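Sphingosine 1-phosphate (S1P) is a signalling lipid, and the expression of 7 genes that make it, remove it or sense it was examined in sorted bone marrow progenitors. The genes are the sphingosine kinases Sphk1 and Sphk2, the S1P phosphatase Sgpp1, the S1P lyase Sgpl1 and the receptors S1pr1, S1pr2 and S1pr4. They were matched by symbol and are 7 of the 41128 genes in the count table. They were chosen by pathway and by measured values. The set was selected on the contrast between P2+ and P2- cells, in which Sphk1 was among the largest falls. Every value of these genes in that contrast is therefore given as a description without a test. Tests of the genes other than Sphk1 in P2+ or P2- against WT reuse those libraries and are not independent evidence.

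The cells were PreMegEs (Pre-Megakaryocyte/Erythroid progenitors), which can still become either megakaryocytes or red cells, sorted from the marrow of C57BL/6 mice aged 12 to 16 weeks. There were 4 groups of 3 libraries, and each library was made from the pooled cells of 3 mice. WT PreMegEs came from wild type mice. P2+ and P2- PreMegEs came from the same kind of mouse, Runx1 P1-GFP::P2-hCD4/+, in which 1 allele of Runx1 carries a GFP reporter at the distal promoter P1 and a human CD4 reporter at the proximal promoter P2, and were separated by the presence (P2+) or absence (P2-) of hCD4. KO PreMegEs came from mice labelled RUNX1C knockout, which lack the Runx1 isoform made from P1. The reporter also sits on 1 allele in every P2+ and P2- cell and in no WT cell, so that the reporter allele and the sort cannot be told apart in a comparison of either fraction with WT. The labels give all groups the same strain, cell type and library protocol, but whether the KO libraries were prepared and sequenced together with the others is not given in the sources used here. Libraries are replicates as far as the labels tell, and p-values measure the spread between these pooled libraries only. In such bulk RNA, a smaller share of cells that express a gene and less RNA of it per cell cannot be told apart.

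Ceramide is split into sphingosine, and the kinases add a phosphate to sphingosine to give S1P. Sgpp1 takes that phosphate off again, whereas Sgpl1 cleaves S1P and so ends its life. Transporters carry S1P out of the cell, where it binds G protein-coupled receptors of the S1pr family. S1P is abundant in blood, to which red cells and platelets supply it, and its gradient between tissue and blood guides lymphocytes and blood progenitors as they leave an organ and megakaryocytes as they extend proplatelets into the vessel.

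Totals were between 10726098 and 14445026 counts per library, at which 3 counts, the limit that a count of 0 allows, are worth 0.207 to 0.288 CPM (CPM is a gene's count scaled to the TMM-adjusted library total, and the limit covers counting error only). Of the genes for the surface proteins that set the gate, Kit and Slamf1 (CD150) were counted in all 12 libraries, at 733 to 1156 and 34.1 to 65.5 CPM, and with the progenitor genes Gata1, Gata2, Epor, Zfpm1 and Tal1 they summed to between 3103 and 3787 CPM. Members of this sum differed between groups: against WT, Slamf1 rose 1.63-fold in KO (adjusted p = 7.51e-05), and Epor rose 1.46-fold in KO and 1.40-fold in P2- and was 2.23-fold lower in P2+ (adjusted p = 6.61e-05, 0.0106 and 1.71e-05, edgeR). Runx1, counted over both promoters together, was at 369 ± 15.6 CPM (SD, n = 3) in WT, 211 ± 7.34 in P2-, 631 ± 24.2 in P2+ and 360 ± 20.4 in KO PreMegEs, so these counts do not check the loss of the P1 isoform in the libraries labelled KO. Replicate 2 of P2- and replicate 2 of P2+ stood apart: 8 immediate early genes (Fos, Fosb, Jun, Junb, Egr1, Ier2, Atf3 and Dusp1) summed to 12104 and 7994 CPM there and to between 149 and 1155 CPM in the other 10 libraries. Values without those libraries are given where the result rests on them.

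Sphk1 lies at chr11:116530925-116536674 on the plus strand of GRCm38, with several annotated start sites. The stretches before 2 of its 5 windowed starts are shown because Sphk1 had the widest range of the 7 genes, and those of Sgpp1 and S1pr4 because they rose with Sphk1 in KO PreMegEs. They are RefSeq sequence of build GRCm38.p6 and stop where an annotated exon begins. Capitals mark the letters AGATAA (bound by GATA factors), CACCC (Krüppel-like factors), TGTGGT (RUNX factors) and CCGGAA (Ets factors), read on both strands, so that a match on the other strand appears as its reverse complement.
Sphk1, start 2, chr11:116531587-116531743, plus strand: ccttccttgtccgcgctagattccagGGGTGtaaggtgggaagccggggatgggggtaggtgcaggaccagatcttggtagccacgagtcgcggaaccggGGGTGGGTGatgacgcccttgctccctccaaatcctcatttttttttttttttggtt
Sphk1, start 4, chr11:116532194-116532443, plus strand: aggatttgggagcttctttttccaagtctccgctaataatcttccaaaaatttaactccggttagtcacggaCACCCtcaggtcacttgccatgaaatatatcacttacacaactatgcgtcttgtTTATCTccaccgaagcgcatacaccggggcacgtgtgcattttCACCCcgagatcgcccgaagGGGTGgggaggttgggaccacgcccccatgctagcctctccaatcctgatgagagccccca
Sgpp1, chr12:75735730-75735979, minus strand: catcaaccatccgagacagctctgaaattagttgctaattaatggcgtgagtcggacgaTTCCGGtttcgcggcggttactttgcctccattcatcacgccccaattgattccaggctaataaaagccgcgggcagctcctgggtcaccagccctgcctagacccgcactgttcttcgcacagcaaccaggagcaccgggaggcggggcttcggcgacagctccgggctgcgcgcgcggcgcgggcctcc
S1pr4, chr10:81500138-81500387, minus strand: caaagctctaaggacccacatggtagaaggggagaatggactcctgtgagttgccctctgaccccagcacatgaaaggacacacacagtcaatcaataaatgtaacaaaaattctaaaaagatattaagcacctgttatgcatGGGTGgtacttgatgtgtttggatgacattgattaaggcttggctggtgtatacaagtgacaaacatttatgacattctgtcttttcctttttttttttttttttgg

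The stretch at start 2 of Sphk1 held 3 matches to the Krüppel-like factor letters, 2 of which overlap each other by a base. The stretch at start 4 held 3 such matches and 1 match to the GATA letters. The window at start 1, at the 5′ end of the gene, held none of the 4 kinds of letters and is not printed because much of it is exon of another isoform, and the windows at starts 3 and 5 overlap those at 2 and 4. S1pr4 held 1 Krüppel-like factor match and Sgpp1 held 1 Ets match, and none of these stretches held the RUNX letters. Windows of 300 bases (250 before a start and 50 after it) were available for 6 of the 7 genes, 11 windows in all, S1pr1 having none. Over the 32851 windows of all genes, 57.5% held the Krüppel-like factor letters, 16.8% the RUNX letters, 14.9% the Ets letters and 11.2% the GATA letters. These shares are over whole windows and the matches above over the shorter stretches printed, so that the counts cannot be set against the shares: the whole window at start 2 of Sphk1 held 4 Krüppel-like factor matches and 1 Ets match. A match describes the letters only.

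Sphk1, the kinase that responds to growth factors and cytokines, had the widest range of the set. In WT PreMegEs it was at 15.5, 24.0 and 19.6 CPM in replicates 1 to 3. In P2- it was at 104, 66.1 and 92.1 CPM, in P2+ at 2.09, 0.759 and 0.991 CPM, and in KO at 67.3, 70.5 and 88.7 CPM. The P2+ libraries were the lowest, WT libraries lay between, and P2- and KO libraries were the highest and overlapped each other, with no overlap at any other step of that order. The counts behind the P2+ values were 25, 11 and 13, above the limit of 3 counts. In the plot of CPM by library the other 6 genes stay within a far narrower band.

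**Figure D1:**
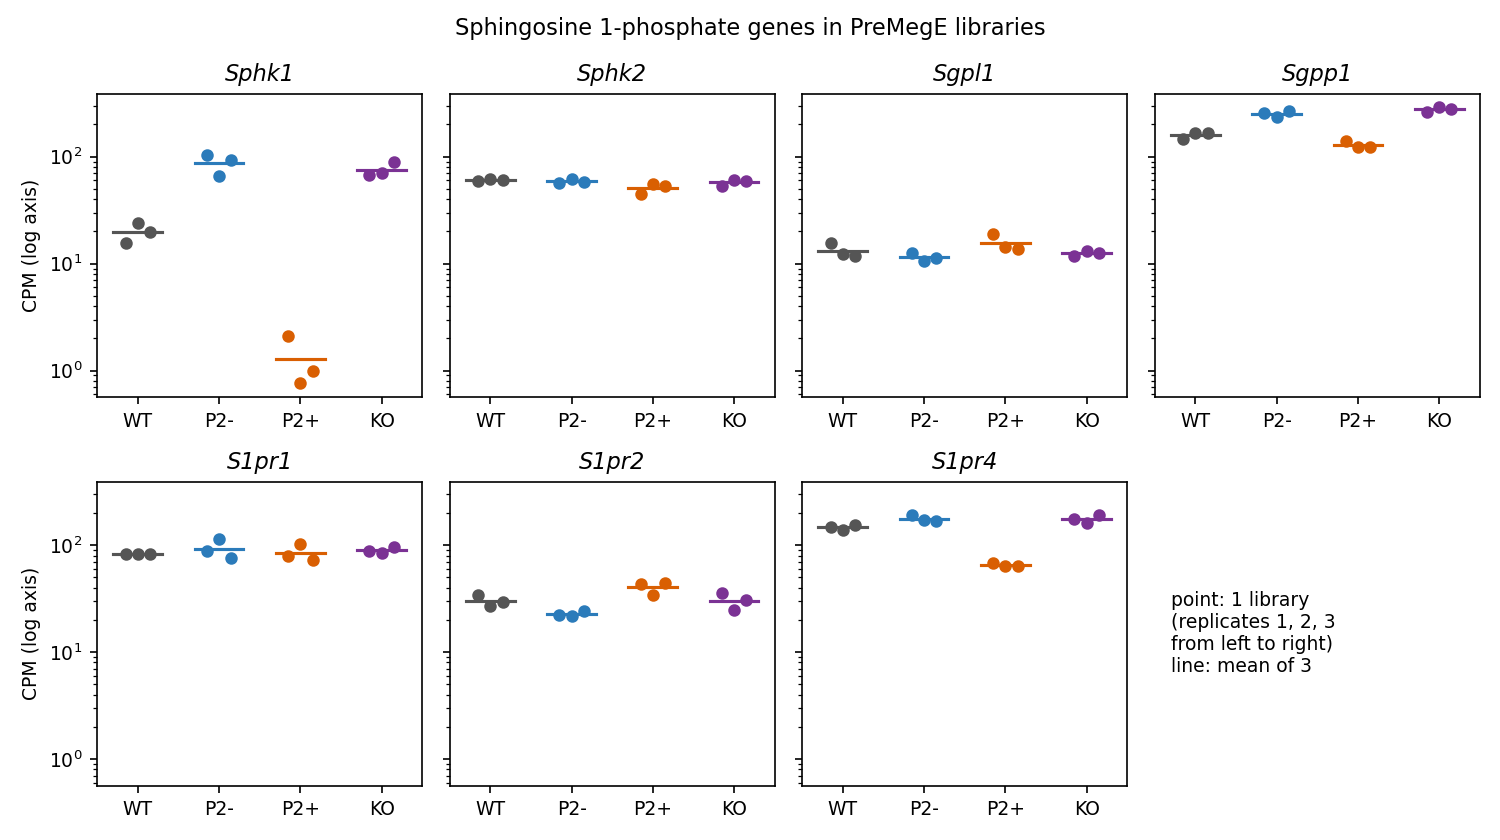
Level of each of the 7 genes in CPM (log axis) in WT, P2-, P2+ and KO PreMegEs, with 1 point per library and a line at the mean of 3. Sphk1 runs from 0.759 CPM in a P2+ library to 104 CPM in a P2- library, Sgpp1 and S1pr4 also have P2- and KO above WT and P2+ below it, over a smaller range, and S1pr2 has the reverse order in P2+, WT and P2-.

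The comparison of P2+ with P2- cells shows how the genes divide between PreMegEs with and without an active P2 promoter. Sphk1 had a log2 fold change of -6.10 ± 0.31 (SE, n = 3 per group), or 68.6-fold lower in P2+, rank 6 from the lowest of the 12836 genes fitted. Relative to WT, it was -3.96 ± 0.33 in P2+ and 2.16 ± 0.19 in P2- on the log2 scale. These values used the libraries that chose the gene and carry no test. Without both replicate 2 libraries, an alternative chosen after seeing the data, the log2 fold change between P2+ and P2- was -5.97 ± 0.21. Sphk1 was thus low in P2+ and high in P2- against WT alike, and WT PreMegEs held a level between the fractions.

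The rule that chose the genes names P2+ values and no KO value, but KO results were known when it was written, so that the KO tests of these genes are not independent evidence. In the comparison of KO with WT PreMegEs, which asks what loss of the P1 isoform changes in the same gate, Sphk1 rose 3.83-fold, with a log2 fold change of 1.94 ± 0.14 (SE, n = 3 per group) and an adjusted p of 4.56e-08 (edgeR quasi-likelihood F-test, Benjamini-Hochberg over 12784 genes). Its rise ranked 18 from the highest of those genes. The call held under all 14 alternatives, with log2 fold changes between 1.78 and 2.10. If the KO libraries were prepared apart from the WT libraries, the preparation and the genotype cannot be told apart in this comparison. All 7 genes passed the filter on low counts, 1 CPM reached in 3 libraries, in every comparison. Of the 7 genes, 3 were higher in KO (Sphk1, Sgpp1 and S1pr4), none was lower and 4 did not pass, where 6.18% of all genes tested were called higher in KO and 8.76% lower. The median log2 fold change of the 7 was 0.11, and that of all genes tested was -0.00291.

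Sphk1 overlaps Gm29292, an antisense gene on the other strand that is listed in the counts under a clone name, by 192 exon bases, which are 4.02% of the exon bases of Sphk1. Gm29292 had 4, 0 and 0 counts in WT, 14, 5 and 11 in P2-, 0 in each P2+ library and 12, 6 and 5 in KO. Its counts were at most 1.79% of those of Sphk1 in any library. It followed the same order of groups as Sphk1 but at a level too low to pass the filter in any comparison, and whether the counting used the strand is not given in the sources used here, so that reads of the pair may be shared. Ube2o, the next gene downstream, was at 33.9 ± 1.83 CPM in WT, 37.2 ± 4.53 in P2-, 38.9 ± 2.57 in P2+ and 37.9 ± 2.39 in KO and passed the test in none of the 4 comparisons.

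Markers of several lineages also differed between the groups, in more than 1 direction. The summed level of 8 erythroid genes (Klf1, Car1, Car2, Hba-a1, Hba-a2, Hbb-bs, Hbb-bt and Rhd) was 1294.5 to 1451 CPM in WT, 1995 to 2286 in P2-, 677 to 840 in P2+ and 1802 to 2012 in KO, while 6 megakaryocyte genes (Pf4, Itga2b, Gp1bb, Gp9, Itgb3 and Vwf) summed to 429 to 487, 89.3 to 130, 605 to 939 and 241 to 273 CPM in the same groups. Klf1, a defining erythroid regulator, was at 227, 220 and 241 CPM in WT and 361, 379 and 375 CPM in KO. The 5 mast cell and basophil markers (Cpa3, Ms4a2, Fcer1a, Mcpt8 and Prss34) summed to 26.9 to 46.9 CPM in WT, 24.5 to 28.3 in P2-, 84.3 to 137 in P2+ and 47.3 to 64.2 in KO, nearly all of it Cpa3 and Ms4a2 in the P2-, P2+ and KO libraries, and both genes rose against WT in P2+ (1.47 ± 0.15 and 2.05 ± 0.27) and KO (0.98 ± 0.13 and 0.71 ± 0.23). The granulocyte and monocyte sum was 82.0 to 195 CPM in WT, 26.3 to 59.9 in P2-, 110 to 248 in P2+ and 29.4 to 65.9 in KO. The part of these cell markers in the Sphk1 result, and in those of the other genes below, was not tested. Of the globin genes, Hba-a1 and Hba-a2 were under 1 CPM in every library, while Hbb-bs was at 1.27 to 25.8 CPM and Hbb-bt at 0.819 to 7.11 CPM, both highest in P2+ replicate 2. The plot of Sphk1 beside these markers shows that Sphk1 and the erythroid sum share the order of groups, and that the range of Sphk1 is wider.

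**Figure D2:**
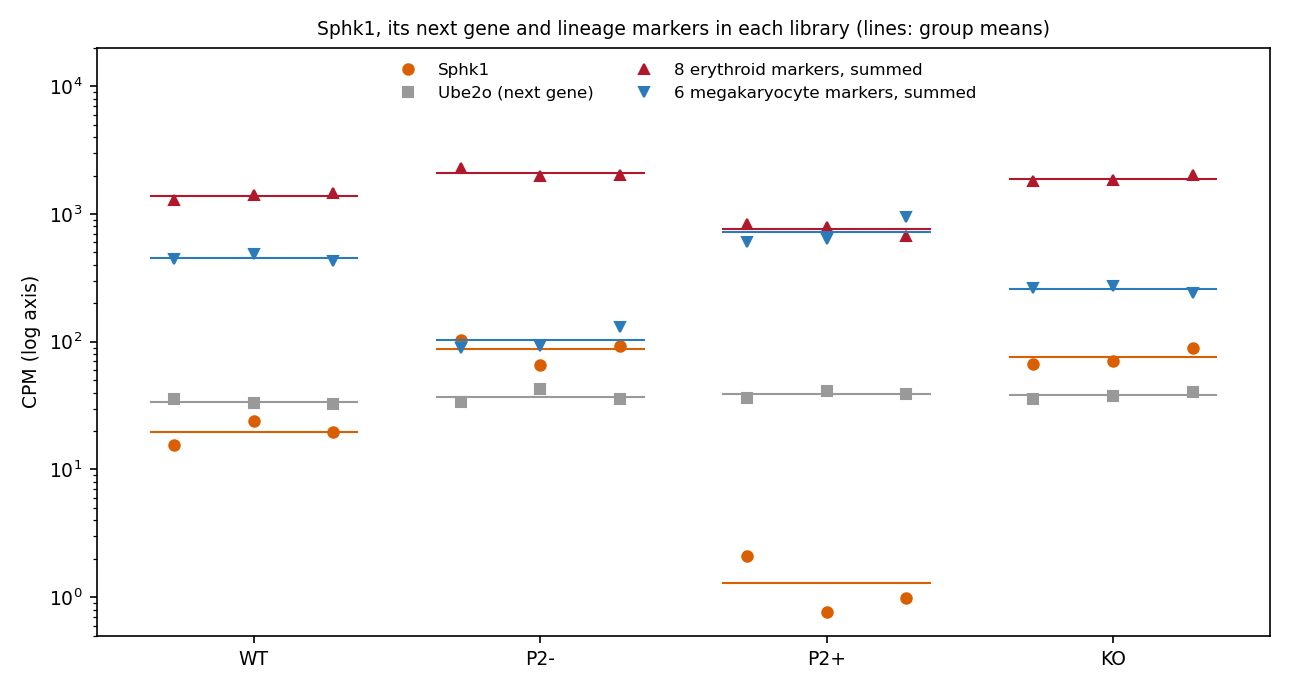
CPM (log axis) of Sphk1, of its next gene Ube2o and of the summed erythroid and megakaryocyte markers in each library, with lines at group means. Sphk1 is lowest in P2+ and highest in P2- and KO, Ube2o stays between 32.3 and 42.3 CPM, and the erythroid and megakaryocyte sums run in opposite directions.

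Sphk2, the kinase found largely in the nucleus and mitochondria, varied little. It was at 58.6, 62.1 and 61.1 CPM in WT, 56.3, 61.9 and 58.0 in P2-, 45.1, 55.0 and 53.5 in P2+ and 53.1, 60.6 and 59.7 in KO. P2+ libraries were the lowest and did not overlap WT or P2-, but overlapped KO, and the other 3 groups overlapped each other. It did not pass the test against WT in P2+ (log2 fold change -0.24 ± 0.10, adjusted p = 0.123), P2- (-0.04 ± 0.08, adjusted p = 0.759) or KO (-0.08 ± 0.09, adjusted p = 0.625) PreMegEs (edgeR quasi-likelihood F-test). Sphk2 overlaps 2 genes on the other strand, Rpl18 by 373 and Dbp by 539 exon bases. Rpl18, a ribosomal protein gene, was at 15.1 to 34.9 CPM and Dbp, a circadian transcription factor, at 15.4 to 23.0 CPM over the 12 libraries, and neither passed the test in any comparison, so the value of Sphk2 is uncertain by what the pair may lend it.

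The kinases were then compared per exon length (RPKM, over the exon bases of all isoforms of a gene). Sphk1 made up 21.9% ± 3.26 (SD, n = 3) of the summed kinase RPKM in WT, 55.9% ± 6.93 in P2-, 2.22% ± 1.46 in P2+ and 53.1% ± 3.10 in KO. The share was below 26% in each WT library and above 48% in each P2- and KO library, since Sphk2 stayed between 12.3 and 14.6 RPKM in group means while Sphk1 went from 0.268 to 18.3 RPKM. The sum of both kinases was 18.7 ± 1.31 RPKM in WT, 32.4 ± 3.33 in P2-, 12.6 ± 1.14 in P2+ and 29.7 ± 3.05 in KO.

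Sgpp1, the endoplasmic reticulum phosphatase that returns S1P to sphingosine, had, like Sphk1, its P2- and KO levels above WT and its P2+ level below, with KO rather than P2- the highest mean. It was at 146, 166 and 168 CPM in WT, 255, 235 and 267 in P2-, 141, 123 and 122 in P2+ and 263, 289 and 279 in KO. P2- and KO libraries overlapped at the top, and the WT and P2+ groups below them overlapped neither each other nor the groups above. In KO it rose 1.72-fold (log2 fold change 0.78 ± 0.07, adjusted p = 4.16e-07) under all 14 alternatives, and in P2- it rose 1.58-fold against WT (0.66 ± 0.09, adjusted p = 0.000682) under all 14 as well. In P2+ it fell by 0.31 ± 0.09 on the log2 scale (adjusted p = 0.0378, all 3 by edgeR's quasi-likelihood test). This last call was lost without WT replicate 2 or 3 (adjusted p = 0.131 and 0.115), without P2+ replicate 3 (0.103) and in the exact test of edgeR (0.0659). The P2+ and P2- libraries in these comparisons are those on which the set was selected, and both share the WT libraries. Against WT, 6.85% of all genes were called higher in P2- and 9.60% lower, and 9.45% were called higher in P2+ and 7.07% lower. Scaled on library totals alone, 548 genes were higher and 1429 lower in P2-, against 875 and 1226. Of the 6 genes other than Sphk1, 2 were called higher in P2- (Sgpp1 and S1pr4), the same 2 were called lower in P2+, and no other call was made. The median log2 fold change of the 7 genes was -0.24 in P2+ and 0.16 in P2-, and that of all genes 0.0018 and 0.0107, given as a description since Sphk1 is among the 7.

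Between P2+ and P2-, the log2 fold change of Sgpp1 was -0.96 ± 0.09, described without a test. In that contrast 6 of the 7 genes, all but S1pr1, had P2+ libraries wholly above or wholly below the P2- libraries, as did 49.9% of all genes fitted. This count used the contrast that selected the genes, and nothing is read from it. The plot of log2 fold changes sets the 4 comparisons side by side.

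**Figure D3:**
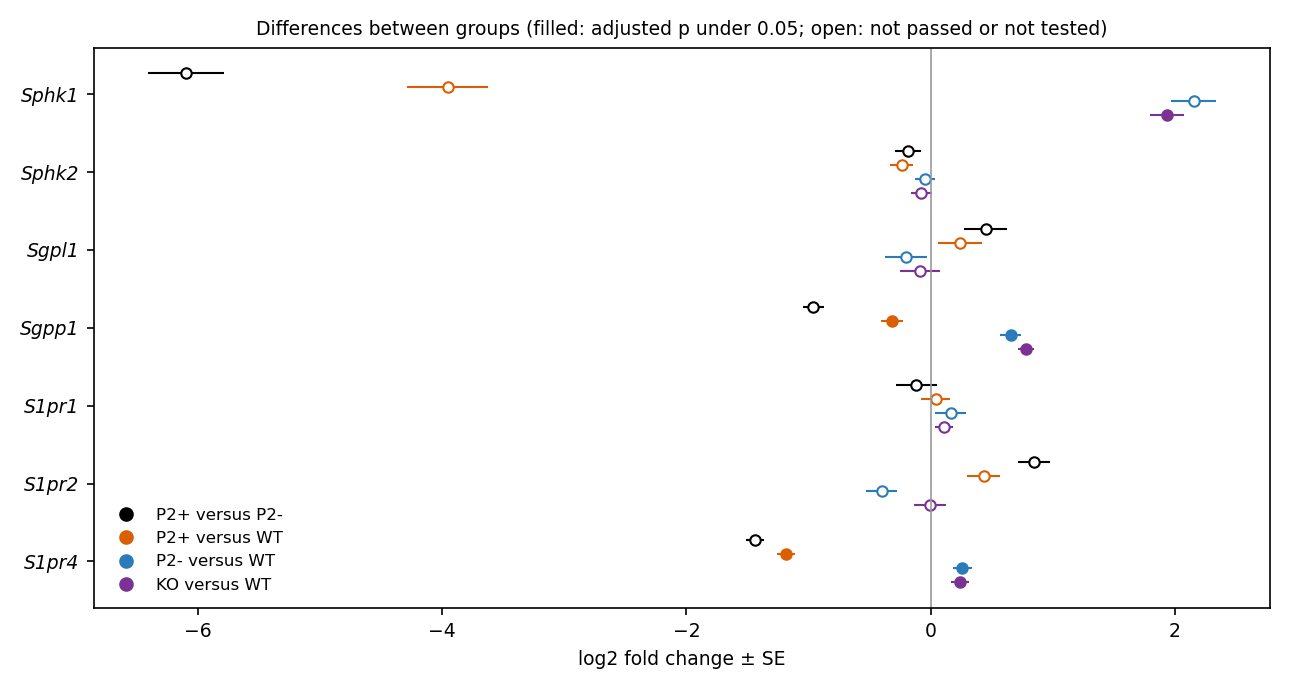
Log2 fold change with its SE for each gene in 4 comparisons (P2+ versus P2-, P2+ versus WT, P2- versus WT, KO versus WT). Filled points passed an adjusted p of 0.05, and open points did not pass or, for all genes in P2+ versus P2- and for Sphk1 in both comparisons with WT of the reporter cells, were not tested; Sphk1 spans -6.10 to 2.16.

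Sgpl1, the lyase that breaks S1P down irreversibly, was the lowest of the 4 enzymes per exon length in WT, P2- and KO cells, and only Sphk1 was lower in P2+. Its level was 15.6, 12.2 and 11.7 CPM in WT, 12.7, 10.5 and 11.2 in P2-, 18.8, 14.3 and 13.6 in P2+ and 11.7, 13.2 and 12.6 in KO. P2+ libraries overlapped WT but lay above every P2- and KO library, and WT, P2- and KO overlapped each other. It did not pass against WT in P2+ (log2 fold change 0.24 ± 0.18, adjusted p = 0.414), P2- (-0.20 ± 0.17, adjusted p = 0.486) or KO (-0.08 ± 0.16, adjusted p = 0.796) by edgeR's quasi-likelihood test. Between P2+ and P2- the log2 fold change was 0.45 ± 0.18, without a test. Per exon length, group means of Sgpl1 were between 1.86 and 2.53 RPKM against 22.8 to 49.0 RPKM for Sgpp1. In each group the phosphatase thus had the higher RPKM. Sgpl1 has 15 exon blocks and Sgpp1 has 3, and whether reads across exon junctions were counted alike for both was not tested.

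S1pr4, a receptor largely restricted to blood cells, was the most abundant receptor in WT, P2- and KO cells. Its level was 149, 140 and 155 CPM in WT, 189, 172 and 169 in P2-, 67.6, 63.2 and 63.5 in P2+ and 174, 162 and 191 in KO. P2+ libraries were below all others, and P2- and KO libraries overlapped each other but not WT. S1pr4 fell 2.27-fold in P2+ against WT (log2 fold change -1.19 ± 0.08, adjusted p = 5.58e-06, edgeR), under all 14 alternatives. The set was selected on the P2+ and P2- libraries, so their tests against WT are not independent evidence. Between P2+ and P2- the log2 fold change was -1.44 ± 0.08, described only. The rises were small. In KO the log2 fold change was 0.24 ± 0.07 (adjusted p = 0.0299), and the call was lost without WT replicate 1 or 2 (adjusted p = 0.0541 and 0.105), without KO replicate 1 or 3 (0.0620 and 0.188) and in 1 fit over all 12 libraries (0.0541). In P2- it was 0.26 ± 0.08 (adjusted p = 0.0432 in edgeR), lost without any of the 3 WT libraries, without P2- replicate 1 or 3, on library totals alone, with a 5 CPM filter and in the exact test. S1pr4 overlaps no gene. Its neighbour Gna15, a G protein alpha subunit of blood cells, was at 105 ± 4.31 CPM in WT, 112 ± 7.21 in P2-, 68.0 ± 7.38 in P2+ and 109 ± 7.10 in KO, and fell in P2+ against WT (log2 fold change -0.62 ± 0.09, adjusted p = 0.00142, edgeR).

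S1pr1, the receptor that draws lymphocytes and megakaryocyte proplatelets towards blood, passed no test. It was at 83.0, 81.8 and 83.0 CPM in WT, 87.2, 114 and 76.3 in P2-, 78.7, 102 and 72.6 in P2+ and 88.9, 85.2 and 95.1 in KO. The highest library of P2- and that of P2+ were both replicate 2, the libraries with high immediate early genes, whose part in these values was not tested. All 3 KO libraries were above all WT libraries, but by little (log2 fold change 0.11 ± 0.07, adjusted p = 0.354). Against WT it was 0.04 ± 0.12 in P2+ (adjusted p = 0.855) and 0.16 ± 0.13 in P2- (adjusted p = 0.435, all by edgeR's quasi-likelihood test). Without replicate 2, these values turned to -0.13 ± 0.08 and -0.02 ± 0.09 and still did not pass, and the log2 fold change between P2+ and P2- was -0.12 ± 0.17 with and -0.09 ± 0.10 without both replicate 2 libraries. S1pr1 was lower in P2+ than in the P2- library of the same number in 3 of 3 pairs, and with the replicate number as a block the value was -0.11 ± 0.07, given without a test.

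S1pr2, a receptor that couples to G12/13 and restrains migration, had the order reversed. It was at 34.3, 26.9 and 29.3 CPM in WT, 22.4, 21.8 and 24.3 in P2-, 43.6, 34.2 and 44.3 in P2+ and 35.4, 24.9 and 30.6 in KO. P2- libraries were below WT and P2+ libraries and below KO libraries without overlap, while P2+ overlapped both WT and KO. Against WT, the log2 fold change in P2+ was 0.44 ± 0.13 (adjusted p = 0.0508) and in P2- -0.40 ± 0.13 (adjusted p = 0.0566), just outside the threshold of edgeR's quasi-likelihood test. S1pr2 passed in P2+ under 7 of 14 alternatives, with adjusted p between 0.0101 and 0.180 over all of them, and without P2+ replicate 2 it was at 0.54 ± 0.13 (adjusted p = 0.0101). In KO it was at -0.01 ± 0.13 (adjusted p = 0.986), and in P2+ against P2- at 0.85 ± 0.13, without a test.

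Per exon length, S1pr4 held 66.3% ± 1.08 (SD, n = 3) of the summed RPKM of S1pr1 to S1pr5 in WT, 69.0% ± 4.28 in P2-, 44.7% ± 3.43 in P2+ and 68.7% ± 0.692 in KO. S1pr1 held 29.1% ± 0.921, 28.1% ± 4.50, 45.4% ± 5.55 and 27.5% ± 0.599, and S1pr2 4.05% ± 0.423, 2.68% ± 0.350, 8.46% ± 1.66 and 3.54% ± 0.533 in the same order. By library, S1pr4 held 46.3%, 40.8% and 47.1% and S1pr1 42.2%, 51.8% and 42.1% in P2+, so that S1pr4 led in replicates 1 and 3 and S1pr1 in replicate 2, the library with high immediate early genes. S1pr4 held a smaller share in each P2+ library than in any other library, as the receptor sum went from 93.4 ± 3.66 RPKM in WT to 60.9 ± 4.20 in P2+ with S1pr1 at 27.1 ± 0.221 and 27.8 ± 5.18 RPKM. The stacked plot by library shows this change of makeup and that of the kinases.

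**Figure D4:**
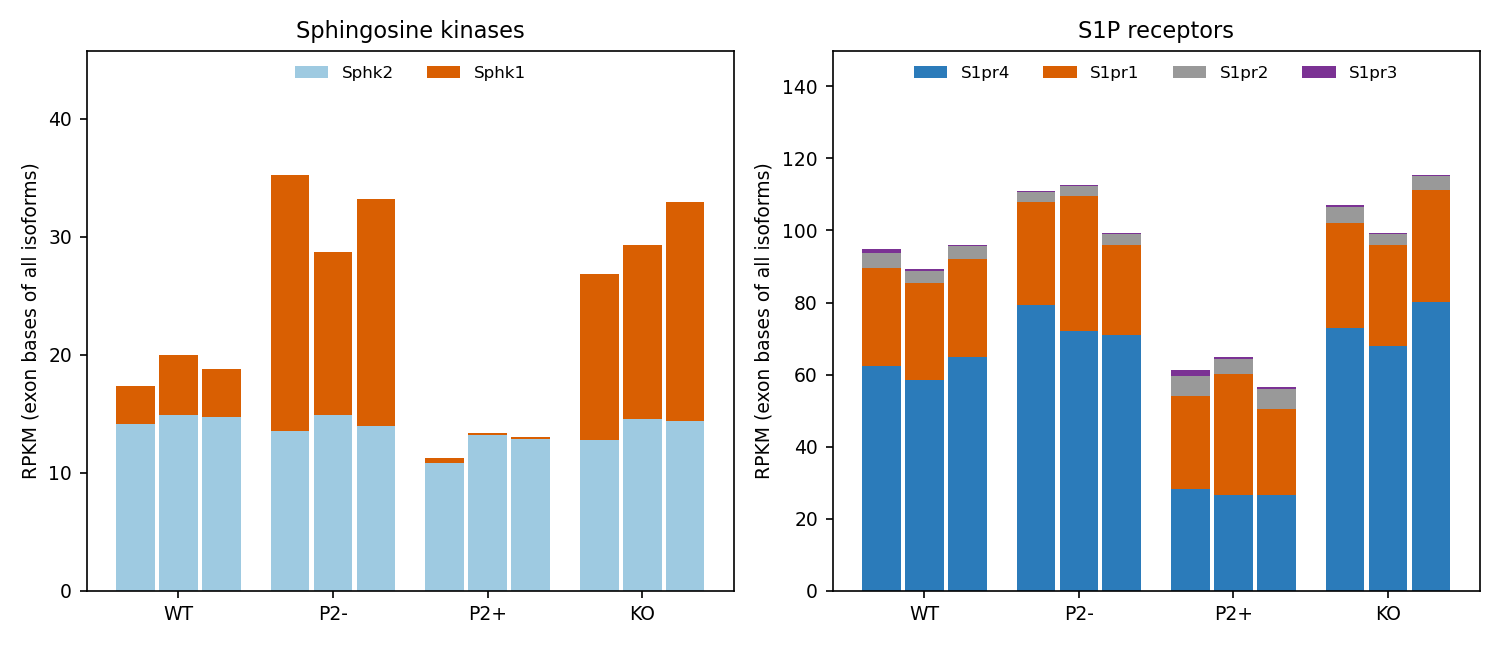
RPKM of the kinases (left) and the S1P receptors (right), stacked, with 1 bar per library (replicates 1 to 3 from left to right) in WT, P2-, P2+ and KO. The Sphk1 part is nearly absent in P2+ (2.22% of the kinase sum), and the S1pr4 part is smaller in every P2+ library than in any other library, while the S1pr1 part has group means of 27.1 to 30.4 RPKM.

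Receptors outside the set were scarce. S1pr3 was at 4.71, 1.94 and 1.17 CPM in WT, 1.35, 1.06 and 0.635 in P2-, 7.04, 2.42 and 2.52 in P2+ and 2.27, 0.769 and 0.819 in KO, and passed as higher in P2+ than in P2- (log2 fold change 1.98 ± 0.54, adjusted p = 0.0186, edgeR) but in no comparison with WT. Replicate 1 was its highest library in each group, and 7 granulocyte and monocyte markers (Mpo, Elane, Prtn3, Csf1r, Ly6c2, S100a8 and S100a9) were also highest there in WT, P2+ and KO, at 195, 248 and 65.9 summed CPM. Their part in S1pr3 was not tested. S1pr5 had 1 count in 1 library and Sgpp2, the second S1P phosphatase, had none in the 12 libraries, which allows up to 0.288 CPM of Sgpp2. Lymphocytes, which carry S1pr1 and S1pr4, were nearly unseen by their T cell markers: Cd3g and Trbc2 were at 0 in all 12 libraries, and Cd3e and Trbc1 at no more than 0.591 CPM. The 9 T and B cell markers together summed to 17.3 to 29.4 CPM in WT, 9.13 to 11.7 in P2-, 24.4 to 43.1 in P2+ and 13.2 to 17.5 in KO, most of it Cd79b. Of 5 endothelial markers (Tek, Egfl7, Emcn, Cdh5 and Cldn5), Cdh5 and Cldn5 were at no more than 0.624 CPM, and Tek and Egfl7, which progenitors also express, made up most of the sum, which was 52.4 to 58.5 CPM in WT, 40.3 to 46.5 in P2-, 78.5 to 93.4 in P2+ and 51.5 to 60.5 in KO. Tek rose in P2+ (0.75 ± 0.12) and fell in P2- (-0.64 ± 0.12) against WT (adjusted p = 0.00210 and 0.00601, edgeR).

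The rest of the pathway was read from a list of 58 genes in 6 functional groups, chosen by function. Between P2+ and P2-, 20 of the 45 genes that passed the filter were higher in P2+ and 7 lower, where 20.1% of all genes were called higher and 17.0% lower. The median log2 fold change of the list was 0.22, and that of all genes -0.02. Against WT, 8 were higher and 4 lower of 46 in P2+ (9.45% and 7.07% of all genes), 5 higher and 7 lower of 45 in P2- (6.85% and 9.60%), and 8 higher and 8 lower of 45 in KO (6.18% and 8.76%). With a minimum of 2-fold, 7 were higher and 2 lower in P2+ against P2- (9.54% and 3.13% of all genes), 1 and 2 in P2+ against WT (2.16% and 1.68%), 0 and 1 in P2- (0.572% and 4.10%) and 0 and 2 in KO (0.743% and 2.67%). The 12 genes that were tested in no comparison had at most 0.776 CPM in any library, among them Apom, the plasma carrier of S1P.

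Among the genes that produce ceramide and sphingosine, the ceramide synthases, which attach a fatty acid to the sphingoid base, did not move as 1 class. Cers6 was at 17.1, 19.1 and 16.2 CPM in WT, 6.05, 4.32 and 7.69 in P2-, 33.2, 25.2 and 27.8 in P2+ and 7.94, 10.1 and 7.92 in KO. It rose in P2+ against P2- (log2 fold change 2.25 ± 0.22, adjusted p = 8.58e-05) and against WT (0.72 ± 0.14, adjusted p = 0.00653), and fell in P2- (-1.52 ± 0.21, adjusted p = 0.00104) and KO (-1.02 ± 0.16, adjusted p = 0.000320, all by edgeR). Cers5 went the same way in all 4 comparisons, at 1.71, 0.75, -0.95 and -0.63 on the log2 scale, and Cers4 rose in P2+ against P2- (0.95 ± 0.13) and fell in P2- (-0.69 ± 0.16) and KO (-0.49 ± 0.13). Ceramidases, which release sphingosine, were divided as well. Acer3 rose in P2- (0.49 ± 0.10) and KO (0.52 ± 0.10) against WT. Asah1, the lysosomal ceramidase, fell in both (-0.49 ± 0.10 in each) and rose in P2+ (0.40 ± 0.10), and Asah2 fell in P2- (-0.54 ± 0.16) and rose in P2+ (0.63 ± 0.14). Acer2 was at -0.77 ± 0.27 in P2- and -0.47 ± 0.27 in KO, which did not pass (adjusted p = 0.0801 and 0.279, edgeR). In P2+ against P2-, Asah1 (0.90 ± 0.10), Asah2 (1.18 ± 0.18) and Acer2 (1.03 ± 0.28) rose, with adjusted p = 0.000236, 0.000993 and 0.0176, and Acer3 was at -0.17 ± 0.11 (adjusted p = 0.246, edgeR). Cers5 and Cers6 thus had the reverse order of Sphk1, with P2+ highest. Cers2, at 223 CPM in WT, 245 in P2-, 196 in P2+ and 251 in KO means, fell instead in P2+ against P2- (-0.31 ± 0.08, adjusted p = 0.0122, edgeR) and passed in no comparison with WT.

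Among enzymes that use ceramide, Ugcg, which makes glucosylceramide, was the gene of the list that fell most. It was at 945, 982 and 880 CPM in WT, 1404, 1182 and 1232 in P2-, 250, 251 and 234 in P2+ and 1066, 1182 and 1180 in KO. It fell in P2+ against P2- by 2.36 ± 0.09 and against WT by 1.93 ± 0.07 on the log2 scale (adjusted p = 1.31e-06 and 2.99e-07), and rose in P2- (0.45 ± 0.08, adjusted p = 0.00364) and KO (0.28 ± 0.06, adjusted p = 0.00620, edgeR throughout). Smpd2, a neutral sphingomyelinase, fell in KO (-0.88 ± 0.24), and Galc, a lysosomal galactosidase, rose in P2+ against WT (0.81 ± 0.15). Smpd4, another sphingomyelinase, rose in P2- (0.28 ± 0.08). Plpp3, a lipid phosphatase that can act on S1P outside the cell, was low, at up to 5.04 CPM, and higher in P2+ than in P2- (1.77 ± 0.47, adjusted p = 0.0172, edgeR).

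Export genes were abundant. Mfsd2b, the S1P transporter of red cells and platelets, was at 928, 864 and 795 CPM in WT, 762, 813 and 886 in P2-, 494, 590 and 632 in P2+ and 818, 883 and 938 in KO. It fell in P2+ against WT (log2 fold change -0.59 ± 0.09, adjusted p = 0.00215) and P2- (-0.51 ± 0.10, adjusted p = 0.00469, edgeR). Spns2, the transporter best known from endothelium, was at 427, 369 and 401 CPM in WT, 285, 308 and 315 in P2-, 378, 352 and 416 in P2+ and 284, 284 and 276 in KO, and fell in KO (-0.51 ± 0.06, adjusted p = 1.83e-05) and P2- (-0.40 ± 0.08, adjusted p = 0.00884, edgeR). Per exon length Mfsd2b was at 167 ± 12.9 RPKM and Spns2 at 97.7 ± 7.06 RPKM in WT. Abcc1, a multidrug transporter that can carry S1P, also fell in P2- (-0.58 ± 0.08) and KO (-0.53 ± 0.07), and Abca1, a lipid exporter, fell in P2+ against WT (-1.03 ± 0.12). The transporters thus divided, Mfsd2b and Abca1 lower in P2+ and Spns2 and Abcc1 lower in P2- and KO.

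Downstream of the receptors, Gna12, the alpha subunit of G12, was at 271, 258 and 283 CPM in WT, 380, 381 and 343 in P2-, 191, 211 and 194 in P2+ and 360, 342 and 355 in KO. It fell in P2+ against WT (log2 fold change -0.44 ± 0.08) and rose in P2- (0.45 ± 0.08) and KO (0.37 ± 0.06), with adjusted p = 0.00385, 0.00419 and 0.000279 (edgeR). Gnaq, another alpha subunit, rose in KO (0.37 ± 0.06), as did Arrb1, a beta-arrestin that takes receptors off the surface (0.46 ± 0.06). Cd69, which binds S1pr1 and pulls it inside the cell, was at 9.77, 5.74 and 9.76 CPM in WT and 2.97, 2.99 and 3.09 in KO, where it fell (-1.49 ± 0.26, adjusted p = 0.000721, edgeR). In the reporter cells it was at 1.43, 113 and 2.05 CPM in P2- and 11.9, 172 and 11.7 in P2+, the second value of each being the replicate 2 library with high immediate early genes. Its rise in P2+ against WT (2.96 ± 0.91, adjusted p = 0.0492) was lost without that library (0.48 ± 0.24, adjusted p = 0.195) and without any of the WT libraries (adjusted p between 0.132 and 0.156), and in P2- against WT the log2 fold change went from 2.19 ± 1.19 (adjusted p = 0.248) to -2.27 ± 0.35 (adjusted p = 0.000573, edgeR).

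**Figure D5:**
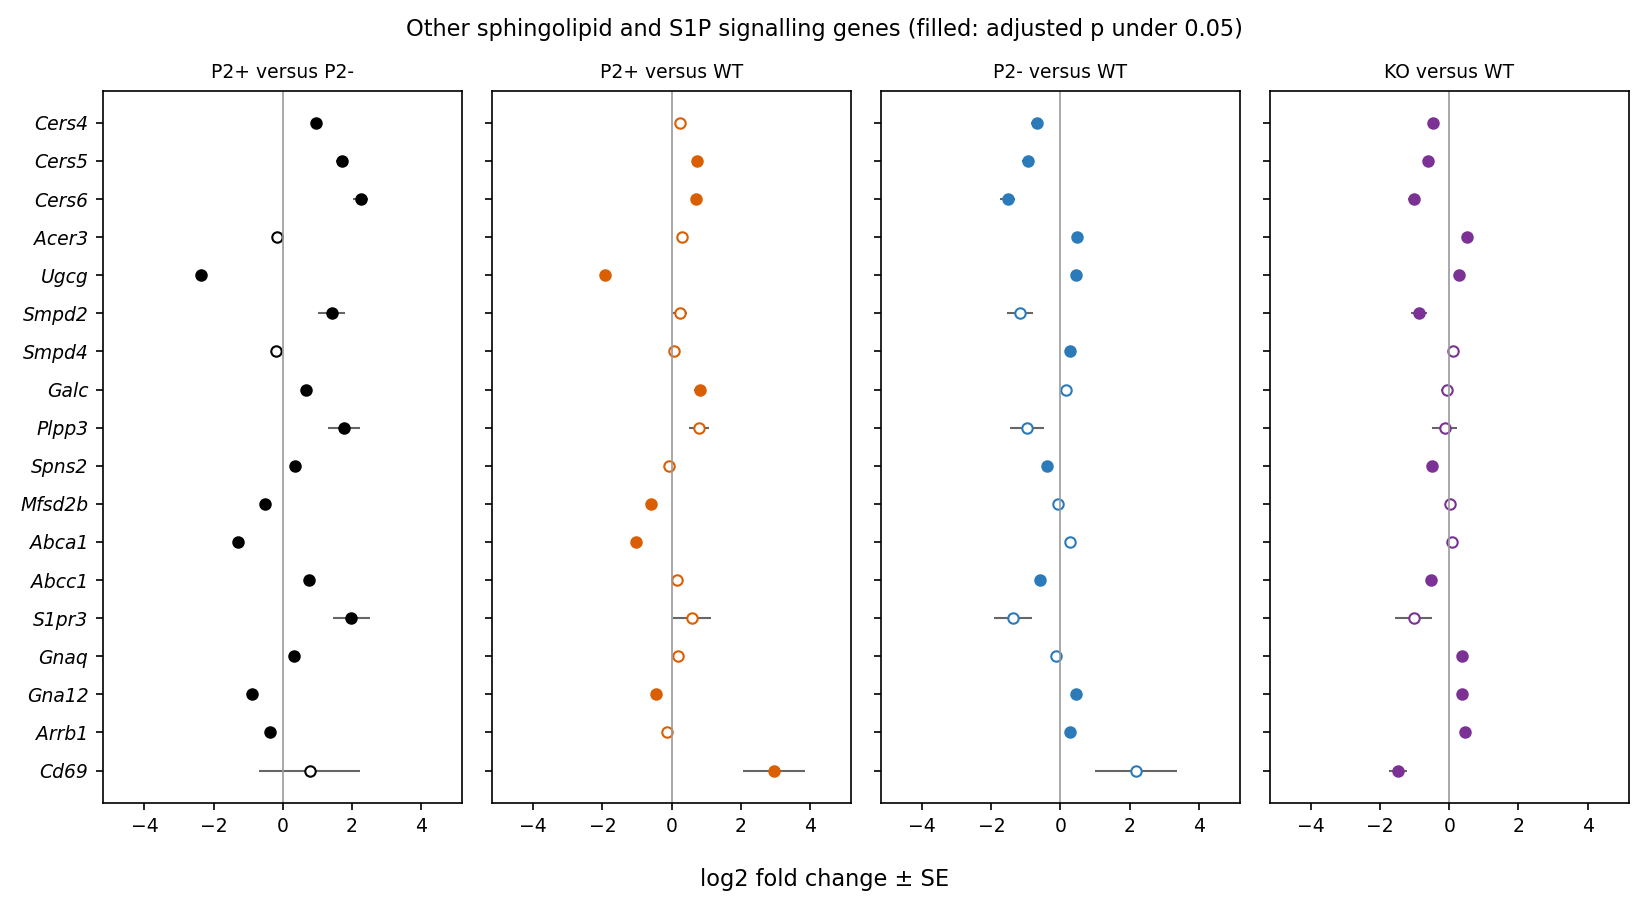
Log2 fold change with its SE of the 18 other pathway genes named, with 1 panel for each of 4 comparisons. Filled points passed an adjusted p of 0.05; Cers5 and Cers6 are higher and Ugcg and Gna12 lower in P2+ against both P2- and WT, and each is on the other side of 0 in P2- and KO against WT.

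Over the 12 libraries, the gene whose log2 CPM was most like that of Sphk1 was Aqp11, a water channel (Pearson r = 0.993 among 13271 genes), at 19.1, 36.2, 5.58 and 36.3 CPM in WT, P2-, P2+ and KO means. Spire1, Zbtb46, Necap2 and Zbtb1 followed with r between 0.991 and 0.992. Within the set, S1pr4 and Sgpp1 were most like Sphk1 (r = 0.974 and 0.926) and S1pr2 least (-0.769). The genes most like the other members were Tnfaip2, Tbc1d2b and Ugcg for S1pr4 (0.992, 0.991 and 0.990), Slc41a3, Abca3 and Cmah for Sgpp1 (0.992, 0.985 and 0.984), Ifi47, Yipf2 and Csf2rb for S1pr2 (0.955, 0.954 and 0.954) and Chd3, Zufsp and Vmp1 for S1pr1 (0.952, 0.948 and 0.943). Those most like Sphk2 were 2410006H16Rik, Hcn3 and Vps72 (0.949, 0.926 and 0.925), and those most like Sgpl1 were Tspan2, Ncapg and Rcbtb2 (0.904, 0.892 and 0.888). The 12 points fall into 4 groups and share their libraries, so these values describe likeness of pattern only.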

How the data were processed

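RNA of sorted PreMegEs was sequenced as strand-specific poly(A) libraries. The authors aligned the paired reads to GRCm38 with Bowtie2 and deposited raw read counts per Ensembl gene from featureCounts; whether the counting used strand, and whether KO libraries were processed together with the others, is not given in the sources used here. The 12 deposited count columns were compared 2 groups at a time (edgeR 4.0.16, R 4.3.3). A gene entered if 3 of the compared libraries reached 1 CPM. TMM scaling was followed by the quasi-likelihood F-test on group and Benjamini-Hochberg adjustment over all genes (called at an adjusted p under 0.05). Group and replicate came from the labels. Same-numbered P2+ and P2- libraries deviated together (correlations 0.386, 0.572 and 0.405). Deviations were taken from the mean of 3 libraries, so that 1 outlying replicate number shared by both groups also moves the other values. Whether the libraries are paired was therefore not settled by this check. The labels do not state the pairing, and other comparisons did not pass the check. Tests of P2+ against P2- used group alone, with the replicate number as a block among the alternatives. RPKM used exon bases of GENCODE vM21. Whether reads across exon junctions were counted alike in genes of few and many exons was not tested, which limits RPKM comparisons between genes. The members, the pathway list and the marker lists were chosen with earlier results of these data known. Named pathway genes are the 4 largest called rises and falls per comparison plus Spns2, Mfsd2b, Apom, S1pr3, S1pr5 and Sgpp2. Ube2o and Gna15, which neighbour members, and Cers2, Asah1, Asah2 and Acer2 were named after their values were seen, and the fit without both replicate 2 libraries was added after seeing the data. Alternatives were RLE size factors, library totals alone, no filter, a 5 CPM filter and the exact test of edgeR. Others were DESeq2 1.42.0, the replicate block, 1 fit over all libraries and leaving out each library. A 2-fold minimum was a further alternative, outside the 14 counted above. Receptor protein sequences were not used here. Some marker genes of the lists are not reported here and were left out of the marker sums.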

Additional observations from a re-analysis of the deposited data

How the results depend on the processing

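Apart from the 2-fold minimum, 23 of the 28 log2 fold changes of the 7 genes held under every alternative run. They stayed on the same side of the threshold or, where untested, moved by less than the spread between replicates. Sphk1 and Sgpp1 in KO against WT were among these 23. Among these, the sign of values near 0 turned for S1pr1 in the 3 comparisons with reporter cells and for S1pr2 and Sgpl1 in KO. S1pr2 in P2+ against WT passed with no filter on low counts (0.43), a 5 CPM filter (0.44), the exact test of edgeR (0.44), DESeq2 (0.43), 1 fit over all 12 libraries (0.43) and the replicate block (0.44), and leaving out each library gave 0.36 to 0.54. Sgpp1 in P2+ against WT was lost in the exact test (-0.31) and with the replicate block (-0.31), and ranged from -0.38 to -0.28 when each library was left out. In P2- against WT, S1pr2 passed on library totals alone (-0.45), a 5 CPM filter (-0.42) and DESeq2 (-0.40), and S1pr4 was lost on library totals alone (0.21), a 5 CPM filter (0.25), the exact test (0.26) and the replicate block (0.26), with 0.21 to 0.30 over left-out libraries. S1pr4 in KO against WT was lost in 1 fit over all 12 libraries (0.25) and ranged from 0.18 to 0.29 over left-out libraries. The cause was not tested.

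With a 2-fold minimum, 1 of the 7 genes was called in KO, and of the other 6, 1 was called in P2+ and 0 in P2- against WT; other pathway genes called at this minimum, with the shares of all genes given above, were 7 higher and 2 lower in P2+ against P2-, 1 and 2 in P2+ against WT, 0 and 1 in P2- against WT, and 0 and 2 in KO against WT. When each library was left out, called members were 1 to 3 in P2+ and 1 to 2 in P2- of 6, and 2 to 3 in KO of 7, where 9.49% to 19.1%, 8.50% to 17.3% and 9.41% to 13.1% of all genes were called either way. In P2- against WT, the exact test and the replicate block each called 1 member and 3 pathway genes higher (5.27% and 4.15% of all genes), library totals alone called 3 higher (4.29%), and DESeq2 and 1 fit over all 12 libraries each called 11 lower (10.8% and 11.2% of all genes); this 1 fit called 5 higher and 5 lower in KO (531 and 745 of all 13272 genes). Over left-out libraries the pathway genes higher were 4 to 7 in P2+ and 3 to 5 in P2- against WT and 5 to 7 in KO, and those lower in P2- were 4 to 10 (of all genes 5.53% to 10.6%, 2.74% to 6.96%, 3.64% to 5.61% and 5.74% to 10.3%). Cd69 in P2- against WT reversed without P2- replicate 2 and ranged from -2.27 to 2.76 over left-out libraries. In the comparison of P2+ with P2-, the replicate block called 25 pathway genes higher and 9 lower, where it called 25.9% and 24.8% of all genes. Without the block, 20 and 7 were called (20.1% and 17.0% of all genes), and these 27 were also called with it. Neither the block nor a left-out library turned a member's direction there except S1pr1 (0.06 without P2- replicate 2). In the other comparisons same-numbered libraries correlated less (correlations -0.0854 to 0.159). Over all genes, P2- against WT gave 548 higher on library totals alone and 530 with the replicate block against 875, KO against WT gave 531 higher and 745 lower in 1 fit over all 12 libraries against 790 and 1120, and leaving out each library gave 344 to 881 higher and 462 to 707 higher in these comparisons and 707 to 1360 higher in P2+ against WT (1223 with all). Depth limited Sphk1 in P2+, which rests on 11 to 25 counts.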
